A study of Homo sapiens with 131 samples.

Results

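Stretches of the genome that were already replicated in nearly every mid-S HAP1 cell were analysed here as 40-kb bins that held the 2-copy state in at least 95% of the cells with a call, with at least 28 cells called, on chromosomes 2, 3, 5, 7, 9, 10, 11, 12, 14, 16 and 20. These bins were selected on the binarized DNA states themselves, so their 2-copy shares describe the selection and were not tested. They are termed constantly replicated (CR) bins below. The rule took 6839 of the 36142 bins of the 11 chromosomes, and the deposited table held 56881 bins on 20 chromosomes.

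The study measured DNA and RNA of the same single cell with scRR-seq, in which genomic DNA is held on magnetic beads and read as copy number, while RNA released into the lysis buffer is read as total RNA. HAP1 is a near-haploid human cell line derived from the chronic myeloid leukaemia line KBM-7, and an unreplicated locus therefore reads as 1 copy and a replicated one as 2. The cells carried no added treatment in the labels, were sorted in mid-S phase and were processed by the scRR1 version of the method. Of 63 mid-S cells in the labels, 56 were in the tables, while 7 further cells and 5 G1 DNA libraries were not analysed here. A single experiment supplied the cells and the labels name no separate cultures, so SDs are over cells, and no p-value was computed.

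Mammalian DNA is replicated in a fixed temporal order, in domains of neighbouring origins that fire at similar times. Early domains are known for being rich in genes, GC bases and open chromatin, and late domains for being gene-poor and attached to the nuclear lamina. Early replication is not the same as transcription, because a silent gene inside an early domain is copied with its neighbours.

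Promoters of a gene with abundant spliced RNA and of a gene with none from the same CR domain are shown side by side. In 2 of the 3 longest CR domains, the promoter of the protein-coding gene with the highest median spliced RNA is printed before that of the longest protein-coding gene with a spliced value of 0 in every cell, among the genes for which RefSeq gave a promoter. Each sequence runs 5′ to 3′ over 300 bases, 250 before the annotated start and 50 from it, as RefSeq gives them for GRCh38.p14, with CG dinucleotides in capitals.
CLTA: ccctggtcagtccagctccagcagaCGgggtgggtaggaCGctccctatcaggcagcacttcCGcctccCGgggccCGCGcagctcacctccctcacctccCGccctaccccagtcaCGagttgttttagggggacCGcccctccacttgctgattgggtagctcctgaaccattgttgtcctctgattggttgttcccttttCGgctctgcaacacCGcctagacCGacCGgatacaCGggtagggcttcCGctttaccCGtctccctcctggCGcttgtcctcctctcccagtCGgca
ARID3C: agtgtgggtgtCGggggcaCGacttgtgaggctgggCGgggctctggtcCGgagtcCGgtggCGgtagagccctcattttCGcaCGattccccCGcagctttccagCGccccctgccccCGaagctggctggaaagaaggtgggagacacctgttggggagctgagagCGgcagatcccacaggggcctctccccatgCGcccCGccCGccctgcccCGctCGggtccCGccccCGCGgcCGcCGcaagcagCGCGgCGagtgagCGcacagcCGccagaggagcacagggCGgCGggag
TUBA1B: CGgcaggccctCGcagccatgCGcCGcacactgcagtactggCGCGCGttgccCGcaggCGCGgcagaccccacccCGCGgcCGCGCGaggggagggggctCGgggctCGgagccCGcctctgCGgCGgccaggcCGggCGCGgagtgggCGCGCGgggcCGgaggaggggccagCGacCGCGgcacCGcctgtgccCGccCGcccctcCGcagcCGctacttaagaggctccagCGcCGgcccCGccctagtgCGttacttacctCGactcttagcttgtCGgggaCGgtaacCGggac
CELA1: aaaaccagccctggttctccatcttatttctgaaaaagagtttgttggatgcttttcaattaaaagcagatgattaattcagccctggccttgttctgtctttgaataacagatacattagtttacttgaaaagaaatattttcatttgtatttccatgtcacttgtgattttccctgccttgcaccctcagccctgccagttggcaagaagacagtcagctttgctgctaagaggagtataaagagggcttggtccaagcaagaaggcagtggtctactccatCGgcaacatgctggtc
CLTA, the clathrin light chain A gene, has its window at chr9:36190671-36190970 on the plus strand, with 18 CG dinucleotides. ARID3C, which encodes a DNA-binding protein of the ARID family, has its window at chr9:34629017-34629316 on the minus strand, with 29 CG dinucleotides. TUBA1B, an alpha-tubulin gene, has its window at chr12:49131346-49131645 on the minus strand, with 43 CG dinucleotides. CELA1, a gene for an elastase-type serine protease, has its window at chr12:51346630-51346929 on the minus strand, with 1 CG dinucleotide. RNA is given in TPM, a unit of transcript abundance corrected for gene length. CLTA RNA ran from 46.1 to 469 TPM over the 56 cells, with a median of 252, and TUBA1B RNA ran from 887 to 4696 TPM with a median of 2204. ARID3C and CELA1 had a TPM of 0 in all 56 cells. Unspliced RNA was above 0 in 2 cells for ARID3C, at a count of up to 9, and in 30 cells for CELA1, at a count of up to 17.7. The RefSeq start of ARID3C lies upstream of its start in the deposited tables, at position 34628086 of chromosome 9.

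The replication score, the share of called bins in the 2-copy state, averaged 53.5% ± 7.90 over the cells (SD, n = 56), between 39.7% and 67.2%. Gene TPM values have the same sum in each cell by construction, and 12045 to 15028 genes per cell reached a TPM of 1. Cells numbered up to 65 (n = 29) and over 65 (n = 27) stood apart in their RNA: mitochondrial genes took 11.03% ± 3.79 and 3.55% ± 0.666 of TPM, and the main RNA differences are therefore also given within each set. The labels give no batch for these sets. Among blood lineage markers, SPI1, ITGAM and CD3E had no RNA in any cell, PTPRC, GATA1 and HBG1 had RNA in 1 cell each, and CD34 had RNA in 27 cells at up to 1.49 TPM. The mesenchymal filament gene VIM had a median of 267 TPM and the proliferation gene MKI67 one of 158 TPM, each with RNA in all 56 cells.

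CR bins made up 18.9% of the bins of the 11 chromosomes, or 273.56 Mb. They were most frequent on chromosome 14, with 528 bins (25.5%), and on chromosome 12, with 753 bins (23.5%). They were least frequent on chromosome 5, with 500 bins (11.7%), and on chromosome 10, with 430 bins (13.4%). Of the CR bins, 3176 (46.4%) were 2-copy in every called cell, 2197 had 1 cell in the 1-copy state, and 1466 had 2 such cells. The lowest share inside the threshold was 95.5%, held by 3 bins, and the highest share outside it was 94.6%, held by 846 bins. A CR bin was called in 43 to 56 cells, and 76.3% of CR bins were called in all 56. Bins without a call made up 1.08% of the states in CR bins and 0.450% of the states in other bins.

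The few 1-copy states inside CR bins were unevenly spread over cells. They numbered 5129 of 378837 called states (1.354%), and the 5 cells with most of them held 35.2%. Cell 51 had 659 CR bins in the 1-copy state, cell 53 had 461 and cell 31 had 264, whereas cell 29 had none. Cells 51 and 53 also had 127 and 137 CR bins without a call, against a mean of 74.1 per cell. Cell 69 had 139 without a call but 25 in the 1-copy state. The part of call quality in the 1-copy states was not tested. The 10 cells with the lowest replication scores, from 39.7% to 43.7%, had 1.67% to 9.82% of their CR bins in the 1-copy state, with a median of 2.66%. The 10 cells with the highest scores, from 62.8% to 67.2%, had 0% to 1.21%, with a median of 0.481%. When cells 51 and 53 were left out, the rule gave 7376 bins, 464 domains with a median length of 400 kb, and 8836 genes.

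The rule was also applied to each set of cells on its own. Cells numbered up to 65 gave 6504 bins, of which 91.6% were 2-copy in at least 95% of the cells numbered over 65, against 25.3% of all bins of the 11 chromosomes. Cells numbered over 65 gave 9127 bins, of which 65.3% reached 95% in the cells numbered up to 65, against 17.996% of all bins. Both percentages count the same 5960 bins, which passed in both sets, and differ only in the total. The values for all bins are likewise the bins that the other set gave. The sets come from a single experiment, so these values describe their overlap and are no independent test of the selection. The mean replication score was 50.7% ± 7.75 in cells up to 65 (SD, n = 29) and 56.4% ± 7.07 in cells over 65 (SD, n = 27). The part of this score in the difference between 6504 and 9127 bins was not tested.

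Adjacent CR bins formed 460 domains, with a median length of 400 kb and quartiles at 160 and 800 kb. The lengths ran from 40 to 5760 kb, and 55 domains were a single bin. The 83 domains of 1 Mb or more held 52.5% of the CR bins, so most of the constantly replicated sequence lay in long domains although most domains were short. The share of bins that were 2-copy in every called cell was 56.9% in domains of 1 Mb or more, 37.4% in those of 200 to 960 kb and 7.35% in those of 40 to 160 kb. This follows from the selection, since the bins at a domain edge, which make up much of a short domain, were 2-copy in every called cell in 3.09% of cases, compared with 64.5% of the bins more than 5 bins inside. The cells disagreed by whole domain as well as by bin. Among the 226 domains of over 10 bins, 19 were wholly in the 1-copy state in at least 1 cell.

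**Figure D1:**
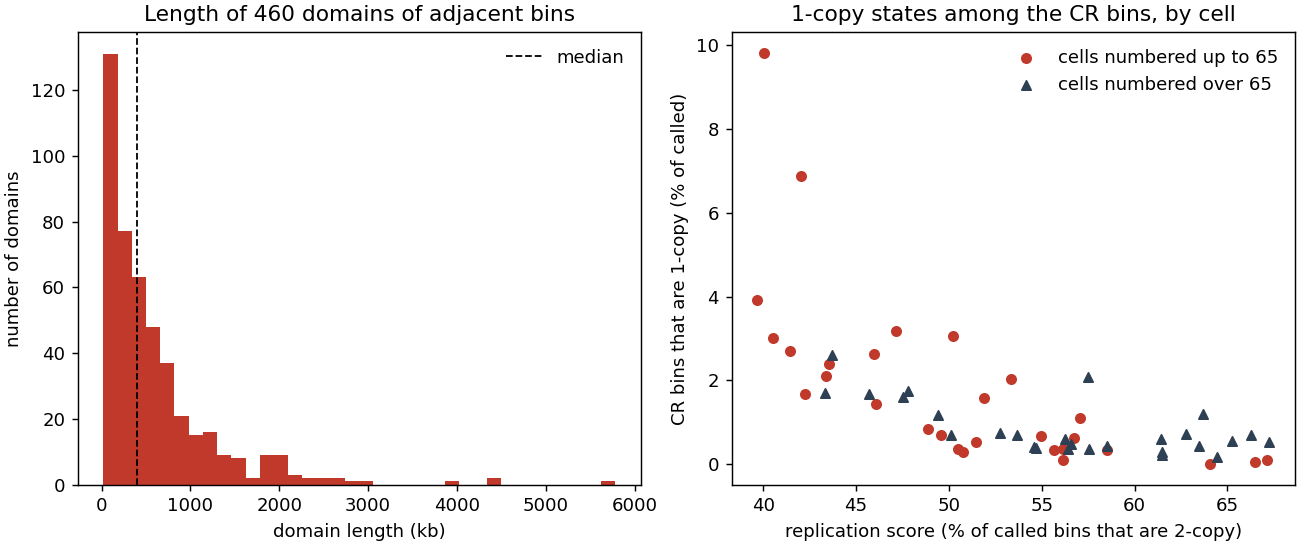
Left, histogram of the lengths of the 460 CR domains in kb, with the median (400 kb) as a dashed line. Right, the percent of called CR bins in the 1-copy state against the replication score in percent, with a point for each of the 56 cells (circles, cells numbered up to 65, and triangles, cells numbered over 65). Cells 51 and 53 are the highest points, at 9.82% and 6.88%.

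The longest CR domain, chr9:32920001-38680000, spanned 5760 kb and held 240 gene starts, of which 98 were protein-coding and 74 belonged to expressed genes. A gene was taken as expressed when its value was above 0 in over 50% of cells. The domain of 4360 kb at chr12:47720001-52080000 held 206 gene starts and 64 expressed genes. The domain of the same length at chr2:170800001-175160000 held 81 gene starts and 24 expressed genes, and that at chr2:178280001-182160000, of 3880 kb, held 53 gene starts and 11 expressed genes. The chr11:71760001-74760000 domain, of 3000 kb, held 124 gene starts and 34 expressed genes, and the chr3:48640001-51440000 domain, of 2800 kb, held 120 gene starts and 54 expressed genes. Gene content therefore differed between long domains that were replicated alike. Their GC content differed too, from 37.0% in the 3880-kb domain of chromosome 2 to 47.8% in that of chromosome 3.

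The RNA of these domains came from genes of varied function. In the chromosome 9 domain, CLTA was followed by STOML2, a protein of the inner mitochondrial membrane, at 50.9 to 401 TPM with a median of 196, and by TOMM5, a subunit of the mitochondrial import pore, at 63.8 to 384 TPM with a median of 196. In the 4360-kb domain of chromosome 2, CDCA7, a cell division cycle gene, had 45.4 to 341 TPM with a median of 178. OLA1, an ATPase of the Obg family in the same domain, had 38.1 to 386 TPM with a median of 135. The pseudogene H3P6 had a median of 413 TPM there, but it shares sequence with expressed histone H3 genes and its reads are uncertain. In the 4360-kb domain of chromosome 12, TUBA1B was followed among protein-coding genes by TUBA1C, another alpha-tubulin gene, at 234 to 1304 TPM with a median of 538. In the 3880-kb domain of chromosome 2, UBE2E3, a ubiquitin-conjugating enzyme, had 117 to 1812 TPM with a median of 506, while CHROMR had a median of 51.4 TPM and PRKRA, an activator of the kinase PKR, one of 47.7 TPM. CHROMR and PRKRA overlap each other. In the chromosome 11 domain, NUMA1, which organises the spindle pole, had a median of 79.4 TPM, INPPL1, an inositol phosphatase, one of 64.5 TPM, and RAB6A, a Golgi GTPase, one of 58.7 TPM.

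**Figure D2:**
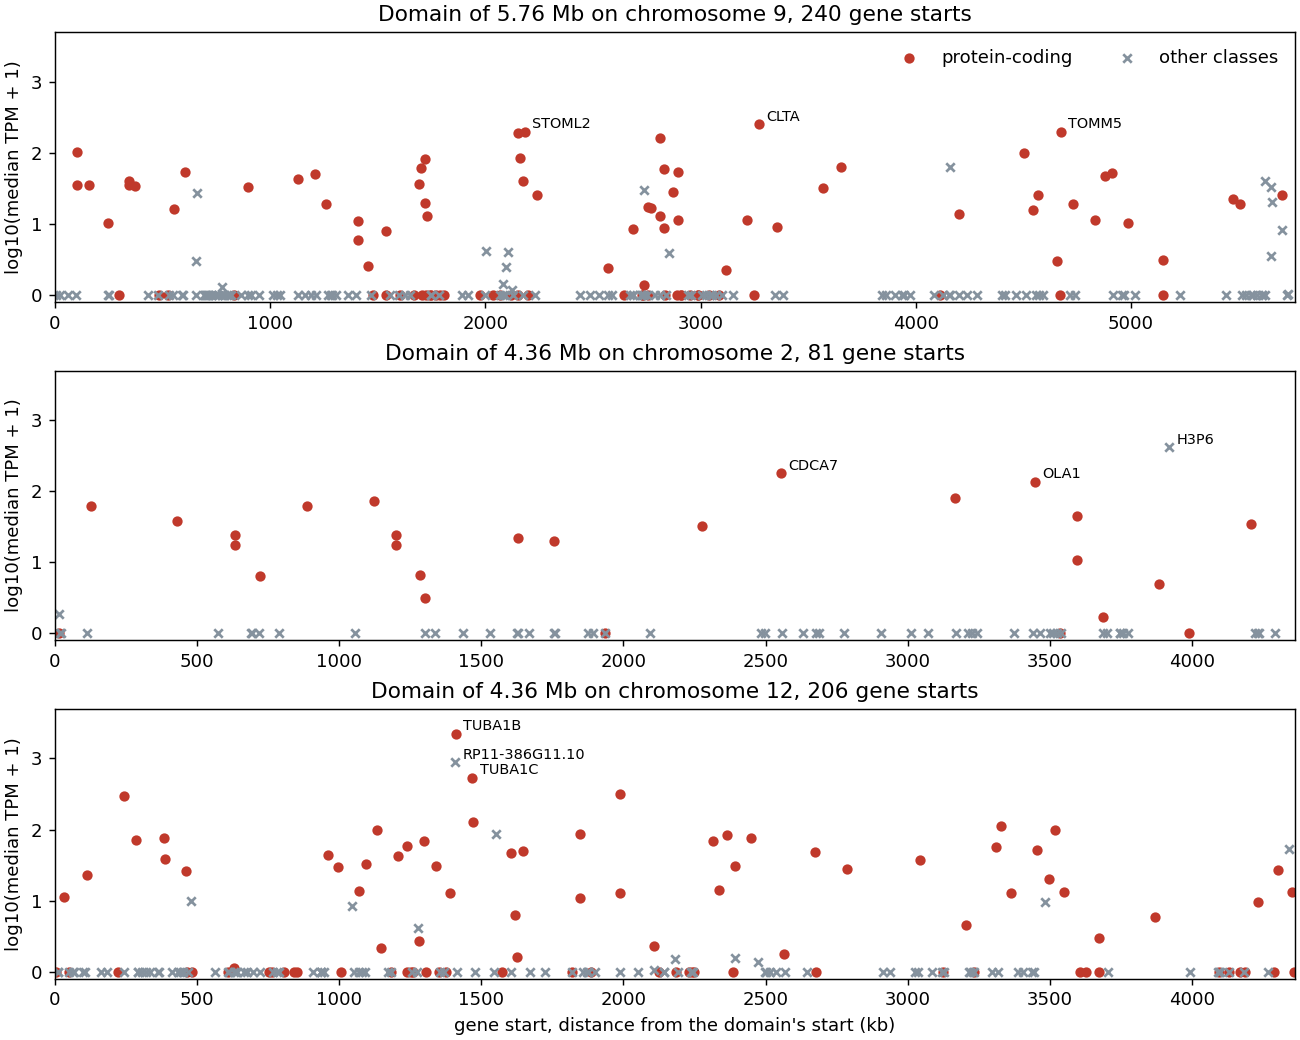
Gene starts along the 3 longest CR domains, by distance in kb from the start of the domain, with the median spliced RNA over 56 cells as log10(TPM + 1) on the y axis (filled circles, protein-coding genes, and crosses, other gene classes). The 3 genes with the highest medians are named in each panel, and genes with a median of 0 lie on the bottom line between expressed ones in all 3 domains.

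Across the domain edges the 2-copy share fell gradually. The median share was 94.6% in the bins next to an edge on the outside, 73.2% at 400 kb, 50% at 800 kb and 42.9% at 1000 kb, which describes the selection. Gene content, which the rule did not use, fell over the same distance. Gene starts numbered 34.5 per Mb in CR bins 400 kb inside an edge and 27.1 per Mb in the outermost CR bins, against 29.8 per Mb in the bins just outside and 17.8 per Mb at 1000 kb outside. Starts of expressed genes numbered 12.03 per Mb at 400 kb inside and 8.36 per Mb in the outermost CR bins, against 8.06 per Mb just outside and 3.61 per Mb at 1000 kb. The bins on either side of an edge were thus close to each other in gene content, and no step stood at the threshold.

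**Figure D3:**
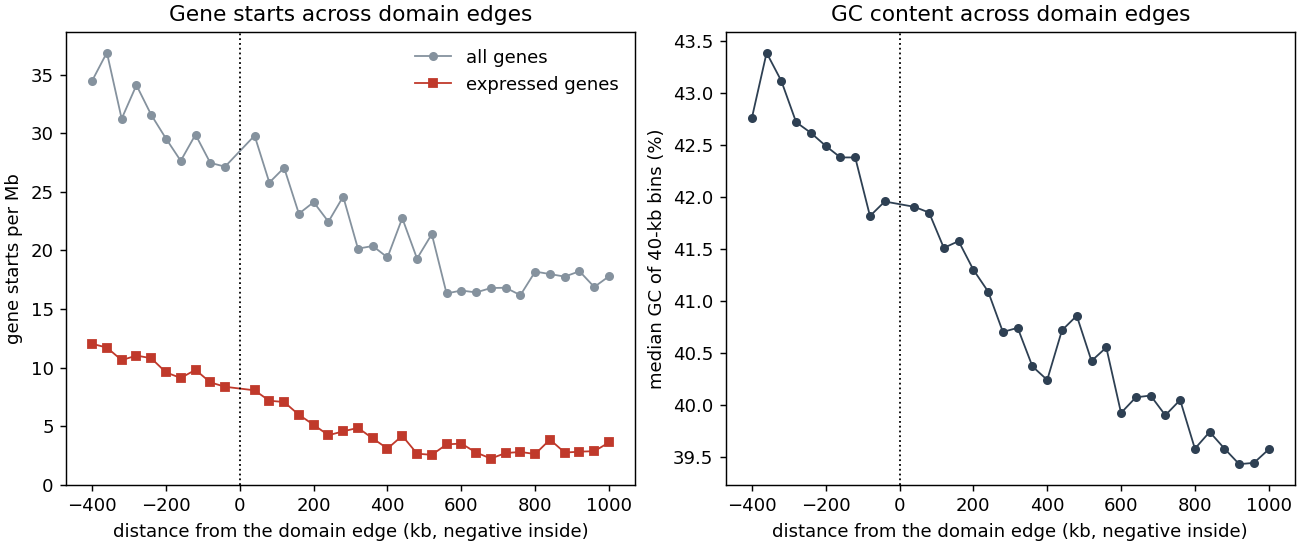
Left, gene starts per Mb and, right, median GC of 40-kb bins in percent, against the distance in kb from the nearest domain edge (negative values inside CR domains, dotted line at the edge). Circles on the left give all genes and squares expressed genes, and both fall with distance out of the domains without a step at the edge.

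CR bins were gene-dense. They held 31.5 gene starts per Mb, against 16.7 per Mb in the other bins of the 11 chromosomes, a ratio of 1.88. For protein-coding genes the densities were 13.5 and 4.83 per Mb, a ratio of 2.80, and for expressed genes 10.6 and 2.96 per Mb, a ratio of 3.58. CR bins thus held 30.5% of all gene starts, 39.6% of protein-coding starts and 45.5% of starts of expressed genes in 18.9% of the bins. Density declined in order of the 2-copy share, with 23.98 starts per Mb in bins at 80 to under 95%, 15.5 in bins over 5 and under 80%, and 11.5 in bins at 5% or less. Gene starts were denser in CR bins than in other bins on each of the 11 chromosomes, from 22.6 against 15.5 per Mb on chromosome 5 to 52.7 against 23.7 per Mb on chromosome 16. Even so, 2653 CR bins (38.8%) held no gene start, compared with 59.9% of other bins, and 438 (6.40%) touched no gene at all, compared with 22.2%.

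The DNA of CR bins was richer in GC. The median GC content was 42.6% (quartiles 39.5% and 47.3%) in CR bins and 39.2% (36.7% and 42.6%) in the other bins. CG dinucleotides numbered 11.6 per kb at the median in CR bins and 7.35 per kb in other bins. The distributions overlapped widely, since 22.4% of CR bins had a GC content under the median of the other bins. By domain length, the GC content averaged 43.6% in domains of 40 to 160 kb, 43.9% in those of 200 to 960 kb and 43.5% in those of 1 Mb or more. Gene density was 29.04, 30.8 and 32.3 starts per Mb in that order.

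Of the 28340 genes with a copy state on the 11 chromosomes, 8252 (29.1%) lay wholly inside CR bins and are called CR genes below. A further 684 genes crossed a domain edge, with a median length of 91.8 kb, of which 542 were protein-coding. The CR genes comprised 3421 protein-coding genes, 1945 lncRNA genes, 1555 pseudogenes and 1190 genes of short RNA classes by the GENCODE annotation, to which 8233 CR genes could be matched.

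RNA was detected from more of the CR genes than of the other genes. Spliced RNA was expressed from 2658 CR genes (32.2%), against 3751 of 20088 other genes (18.7%), beside a background of 22.6% over all genes of the 11 chromosomes. Among protein-coding genes, 2303 CR genes (67.3%) and 3116 other genes (51.8%) were expressed, beside 57.5% overall. By the gene's 2-copy share the expressed percentage of protein-coding genes was 67.3% in CR bins, 59.8% at 80 to under 95%, 47.2% at over 5 and under 80%, and 15.5% at 5% or less. The lncRNA genes, which as a class are expressed at low levels, were expressed in 13.4% of 1945 CR genes and in 7.91% of 6169 other genes. The order held on each chromosome: the expressed percentage was higher among CR genes than among other genes on all 11, from 30.1% and 19.4% on chromosome 7 to 37.2% and 19.5% on chromosome 16.

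**Figure D4:**
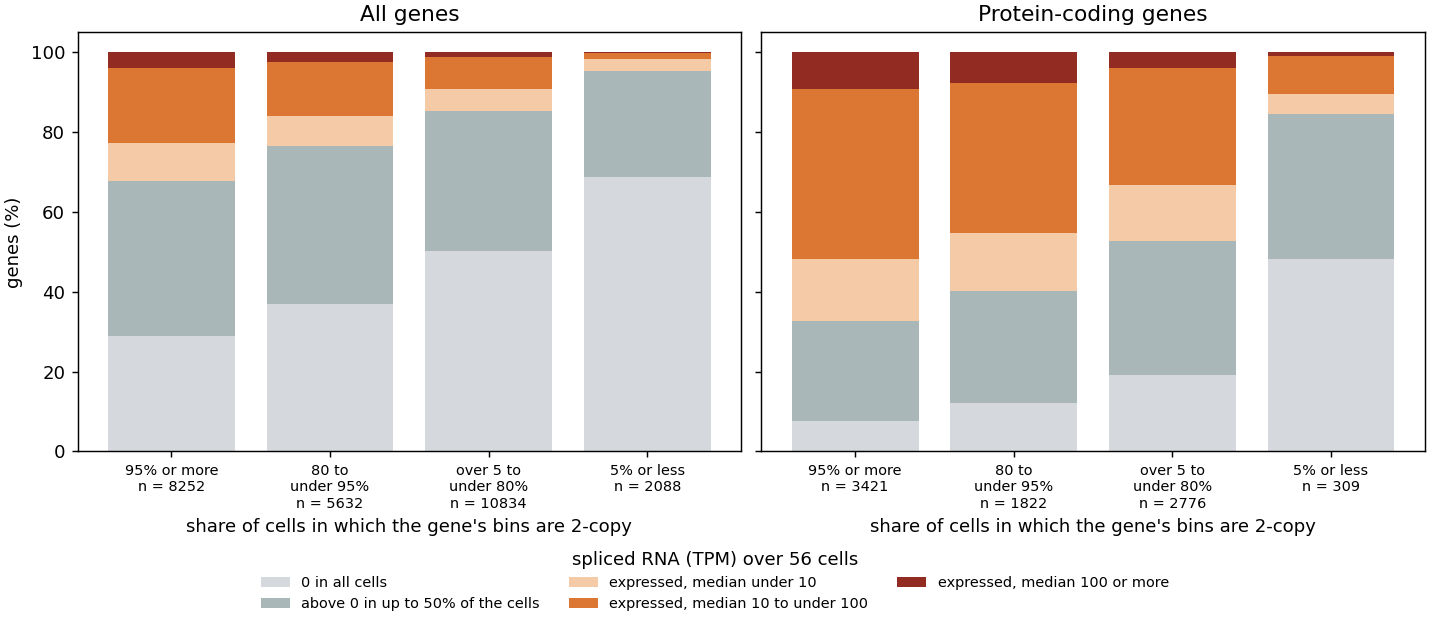
Percent of genes by level of spliced RNA over 56 cells, for all genes (left) and protein-coding genes (right), in bars for genes wholly inside bins of each 2-copy share, CR genes leftmost. Among protein-coding CR genes 7.75% had a TPM of 0 in all cells and 9.32% were expressed with a median of 100 TPM or more, against 48.2% and 0.971% in the rightmost bar.

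Cell by cell, 33.9% ± 2.07 of CR genes and 20.6% ± 1.58 of other genes had a TPM above 0 (SD, n = 56 cells). The difference averaged 13.3 ± 0.709 percentage points and was positive in 56 of 56 cells, from 11.8 to 15.2. It was 13.0 ± 0.569 in cells numbered up to 65 (SD, n = 29) and 13.7 ± 0.645 in those over 65 (SD, n = 27). For protein-coding genes the detected share was 65.8% ± 3.23 of CR genes and 51.5% ± 3.01 of other genes. The lowest cell for CR genes, at 59.4%, was above the highest cell for other genes, at 58.8%.

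The level of expressed genes was also compared. The median log10(TPM + 1) per cell was 1.39 ± 0.0372 for expressed CR genes and 1.29 ± 0.0325 for expressed other genes. The difference of 0.0963 ± 0.0262 was positive in all 56 cells, and it averaged 0.0983 ± 0.0282 in cells numbered up to 65 (SD, n = 29) and 0.0943 ± 0.0242 in those over 65 (SD, n = 27). Expressed CR genes had a median TPM of 22.6 over genes, with quartiles of 7.63 and 53.9, and expressed other genes one of 18.03, with quartiles of 5.80 and 42.3. For protein-coding genes these medians were 26.4 and 22.5 TPM. On chromosome 16 the order turned, with medians of 16.5 TPM for CR genes and 17.9 TPM for other genes. At the top of the range, 336 CR genes (4.07%) and 314 other genes (1.56%) had a median of 100 TPM or more. CR genes gave 49.7% ± 1.02 of the summed TPM of the 11 chromosomes, between 47.5% and 52.3% in single cells.

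Unspliced RNA is an estimated count with no correction for gene length, and it was not scaled to a common total per cell. The summed count per cell averaged 837179 ± 206130 in cells numbered up to 65 (SD, n = 29). In cells numbered over 65 it averaged 573830 ± 78563 (SD, n = 27). The authors took unspliced RNA as gene-body reads minus the exon reads of the gene, with negative results set to 0. It was above 0 in over 50% of cells for 2140 CR genes (25.9%) and 4613 other genes (22.96%), beside 23.8% of all genes, so the shares were close to the background. Among protein-coding genes, 46.4% of CR genes and 49.1% of other genes were above 0 in over 50% of cells. The other genes include genes that cross bins of different 2-copy share. For protein-coding genes wholly inside bins of a single share class, it was 42.9% at 80 to under 95% and 43.9% at over 5 and under 80%. At 5% or less it was 28.8%, so the CR genes were above each of these classes. Among the genes of all classes that passed, the median log10(count + 1) per cell was 0.864 ± 0.163 for CR genes and 0.595 ± 0.151 for other genes, a difference of 0.269 ± 0.106 that was positive in 56 of 56 cells. It averaged 0.278 ± 0.0889 in cells numbered up to 65 (SD, n = 29) and 0.260 ± 0.123 in those over 65 (SD, n = 27). Divided by gene length in kb before the log, the difference was 0.0571 ± 0.0315, and among protein-coding genes alone it was 0.141 ± 0.104 and positive in 50 of 56 cells. CR genes were shorter among protein-coding genes, with a median of 23.3 kb, than other protein-coding genes, with a median of 40.9 kb. The rule sets part of this gap, because long genes that cross a domain edge count as other genes. Protein-coding genes wholly inside bins of the other share classes had medians of 25.4, 35.7 and 16.3 kb, in falling order of share. CR genes gave 31.2% ± 2.31 of the unspliced counts of the 11 chromosomes, compared with 49.7% ± 1.02 of the spliced TPM. Genes that cross a domain edge count as other genes in both shares.

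**Figure D5:**
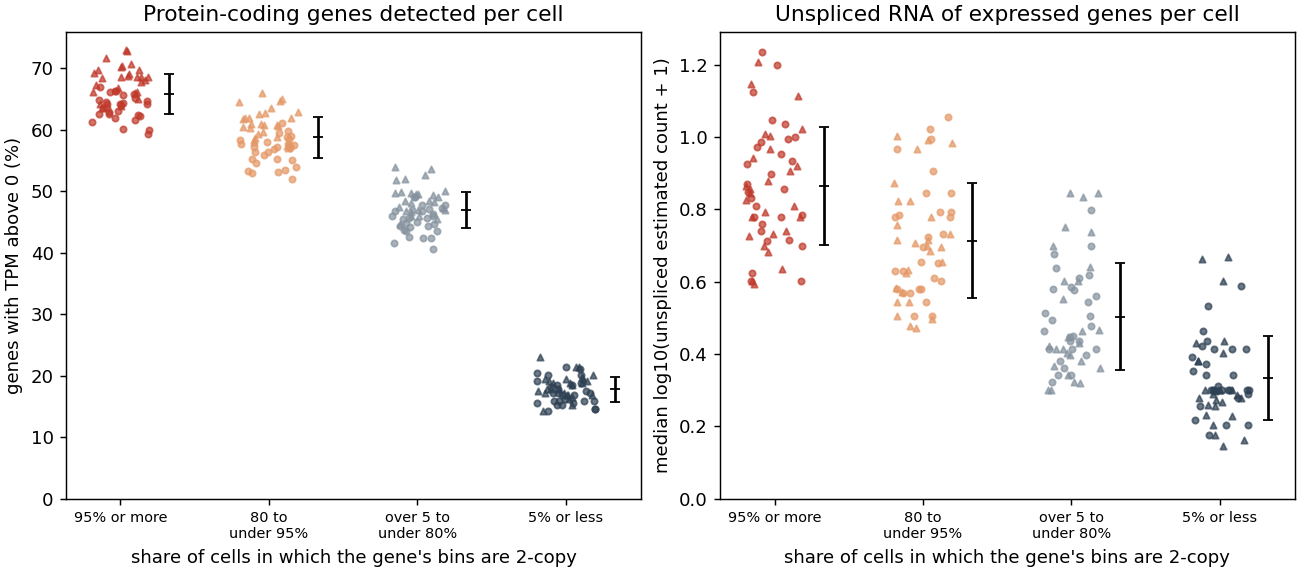
Left, percent of protein-coding genes with TPM above 0 and, right, median log10(unspliced estimated count + 1) of expressed genes, with a point per cell (circles, cells numbered up to 65, and triangles, cells over 65) and the mean ± SD over 56 cells beside them, for genes by the 2-copy share of their bins. CR genes, leftmost, averaged 65.8% detected and 0.864 in unspliced RNA, and genes at 5% or less averaged 17.8% and 0.333.

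Ribosomal protein genes were the most numerous among the CR genes with the highest medians. RPL41, which encodes the smallest protein of the large ribosomal subunit, had 4255 to 13674 TPM with a median of 8905. RPLP0, of the ribosomal stalk, had 1586 to 4975 TPM with a median of 3265, and RPS21, of the small subunit, 1868 to 4691 TPM with a median of 2868. RPS25, RPS27A and RPS13, also of the small subunit, had medians of 2464, 2276 and 1980 TPM. ACTB, the cytoplasmic actin, had 1454 to 6288 TPM with a median of 2631. The glycolytic enzyme gene GAPDH had 1366 to 4534 TPM with a median of 2262, and HNRNPA1, a splicing regulator, 1037 to 3219 TPM with a median of 2159. TUBA1B has close relatives, TUBA1A and TUBA1C, so its value of 2204 TPM may include their reads. The noncoding RNAs in this range were MALAT1, a nuclear lncRNA, at 754 to 8152 TPM with a median of 2592, and RNU4-1, a spliceosomal RNA with a near-identical copy RNU4-2, at 660 to 4722 TPM with a median of 2034. For several of these genes the cell sets differed in level. The RPL41 median was 6976 TPM in cells numbered up to 65 and 10989 TPM in those over 65, whereas the MALAT1 median was 3373 and 1757 TPM.

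Housekeeping complexes were expressed whether inside CR bins or not. As a background for this and the following lists, 3421 of the 9432 protein-coding genes of the 11 chromosomes lay inside. Of 35 cytosolic ribosomal protein genes on the 11 chromosomes, 18 (51.4%) were CR genes and all 18 were expressed, at medians of 228 to 8905 TPM, while 16 of the 17 outside were expressed. The mitochondrial ribosomal protein genes had 11 of 36 inside, all 11 expressed at up to 200 TPM for MRPL51, and 25 of 25 expressed outside. Of 17 proteasome genes 9 were inside, and 8 of these and all 8 outside were expressed, with PSMB7, of the catalytic core, at a median of 319 TPM. Of 19 aminoacyl-tRNA synthetase genes 7 were inside, among them MARS1 with a median of 318 TPM, IARS1 with 279 and QARS1 with 269, and all 19 were expressed. The median level of the synthetase genes was 177 TPM for the 7 inside and 45.6 TPM for the 12 outside. The medians inside and outside were 1505 and 1162 TPM for cytosolic ribosomal protein genes, 52.99 and 53.4 TPM for mitochondrial ribosomal protein genes, 107.9 and 103.7 TPM for proteasome genes, and 93.3 and 16.9 TPM for the initiation factor genes. Translation initiation factor genes, matched by the EIF prefix, had 19 of 34 inside, of which 17 were expressed, and 12 of the 15 outside were expressed. EIF4A2, an RNA helicase of the cap-binding complex, had 98.8 to 783 TPM with a median of 317.

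Genes for DNA replication were expressed on both sides. Of 28 on the 11 chromosomes 11 (39.3%) were CR genes, and all 28 were expressed. MCM7, a subunit of the replicative helicase, had 106.3 to 521 TPM with a median of 282. FEN1, the flap endonuclease of lagging-strand synthesis, had 27.1 to 270 TPM with a median of 136, POLD2, a polymerase delta subunit, a median of 123 TPM, and ORC6, of the origin recognition complex, a median of 118 TPM. Nuclear genes of oxidative phosphorylation had 21 of 57 inside, with 19 expressed, and 36 outside, with 33 expressed. ATP5F1B, the beta subunit of ATP synthase, had 706 to 2153 TPM with a median of 1401, and COX6A1, a subunit of cytochrome c oxidase, 488 to 1583 TPM with a median of 821. COX4I2, an isoform of another subunit of that oxidase, had a TPM of 0 in every cell.

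Larger and more tissue-restricted families were split. Solute carrier genes had 62 of 192 inside CR bins, of which 36 (58.1%) were expressed, and 54 of the 130 outside (41.5%). SLC3A2, the heavy chain of amino acid transporters, had 52.8 to 472 TPM with a median of 189, while SLC22A24 and SLC22A6, of the organic anion transporter family, and SLC26A3, an intestinal anion exchanger, had a TPM of 0 in all cells. Zinc finger genes had 51 of 162 inside, of which 42 (82.4%) were expressed, and 61.3% of those outside. ZNF639 had a median of 65.9 TPM and ZNF664 one of 59.4 TPM. Genes for small RNAs had 667 of 1968 inside, of which 524 (78.6%) had a TPM of 0 in every cell, compared with 86.9% of the 1301 outside. MIR1244-4 had a median of 1131 TPM, and annotated copies of it elsewhere carried the same median, so reads of the copies cannot be told apart.

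Developmental and sensory families differed in how many members lay inside and in how many of these were expressed. The HOX genes, which pattern the body axis, had 16 of 29 inside, and 9 of the 16 were expressed, against 6 of the 13 outside. Beside these counts stand 29.1% of all genes and 3421 of the 9432 protein-coding genes inside CR bins, and 57.5% of all protein-coding genes expressed. HOXA7 had 0 to 114.7 TPM with a median of 24.5 and RNA in 50 cells, and HOXC13 had a median of 6.12 TPM, whereas HOXC12 had no spliced or unspliced RNA in any cell. Of 10 globin genes 5 were inside, all in the alpha cluster of chromosome 16, and 0 of the 5 inside and 0 of the 5 outside were expressed. HBA1 and HBA2, nearly identical alpha-globin genes, had RNA in 11 and 13 cells, at up to 90.04 and 42.4 TPM. Keratins had 5 of 27 inside, of which 2 were expressed, against 0 of the 22 outside. KRT18 had 0 to 83.8 TPM with a median of 23.8, KRT8 had a median of 1.18 TPM, and KRT79, KRT78 and KRT4 had a TPM of 0 in every cell. Claudins had 3 of 11 inside, and 0 of these 3 were expressed, against 4 of the 8 outside. Potassium channel genes had 10 of 47 inside, and 2 of these 10 were expressed, against 11 of the 37 outside (29.7%). With 3 claudins and 10 potassium channel genes inside, these shares rest on too few genes to compare inside with outside. Other families were nearly absent from CR bins. Only 13 of 256 olfactory receptor genes (5.08%) lay inside, and of these OR10G3 was expressed, at a median of 1.94 TPM. T cell receptor and immunoglobulin segments had 2 of 156 inside. Clustered protocadherins (53 genes), interferon genes (18), taste receptors (10) and mucins (6) had none inside. The list of replication-dependent histones, matched by clustered gene symbols, found no gene on these chromosomes.

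Long genes inside CR bins were mostly expressed. Of the 448 CR genes of 100 kb or more 75% were expressed, against 43.96% of 2234 other genes of that length. For genes under 1 kb the shares were 1.94% of 2731 and 1.04% of 6908. DOCK3, a regulator of Rac GTPases of 709272 bp, had 0 to 57.7 TPM with a median of 7.32 and a median unspliced count of 369. ANK3, the ankyrin G gene of 707193 bp, had a median of 21.3 TPM but a median unspliced count of 7.25. ADGRV1, a large adhesion receptor gene of 635094 bp, had 36.4 to 690 TPM with a median of 169 and a median unspliced count of 592. MECOM, a zinc finger transcription factor gene of 580277 bp known as a leukaemia oncogene, had a median of 27.2 TPM and unspliced counts of 53.2 to 12303 with a median of 1997. The pseudogene EGFEM1P, of 581078 bp, had a median of 17.5 TPM, and DENND1A, an endocytic regulator of 550499 bp, had one of 9.09 TPM.

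MECOM had the second highest median unspliced count of the CR genes. The others at the top mostly overlapped abundant genes, so these counts cannot tell their intron reads from reads of their partners, exon reads included. NKIRAS1, which overlaps RPL15, had a median unspliced count of 1141 beside a median of 5.25 TPM. NPIPB4, of a multigene family, had 876 and CPNE7, a copine gene with no overlapping gene, had 856. The clone-named gene RP11-968A15.8, which spans HNRNPA1 and CBX5, had the highest median, 2136, and RP11-386G11.10, which spans TUBA1B and TUBA1A, had 1469. AP002954.4, which overlaps DDX6, had 923, and RP11-761B3.1, which spans CALM2 and TTC7A, had 822 with a spliced TPM of 0 in every cell. HNRNPA1 and TUBA1B, in turn, had unspliced counts of 0 in all cells. Because negative results were set to 0, these counts do not show that unspliced RNA was absent.

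Silent genes were present in CR domains, at a lower share than among the other genes. A TPM of 0 in all 56 cells was found for 2384 CR genes (28.9%) and 9158 other genes (45.6%), beside 40.7% over all genes. For protein-coding genes it was found for 265 CR genes (7.75%) and 976 other genes (16.2%), beside 13.2%. Unspliced RNA was above 0 in some cells for 174 of these 265 CR genes, and in most of the cells for 34. The term silent refers here to spliced RNA. Of the 2384 silent CR genes, 848 (35.6%) belonged to short RNA classes, 762 (31.96%) were pseudogenes and 481 (20.2%) lncRNA genes. Unspliced RNA was also 0 in every cell for 1833 of them. A value of 0 means no detected RNA at this depth in RNA released into the lysis buffer, from which nuclear RNA is partly missing.

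The 265 silent protein-coding genes lay close to active ones. They were spread over 122 domains, and 261 of the 265 had their start in a domain with at least 1 expressed gene start. Domains without an expressed gene start held only 5.09% of the CR bins, so this count is close to the background. The median distance of the 265 genes to the nearest start of an expressed protein-coding gene was 44.6 kb (quartiles 17.3 and 95.8). It was 149 kb (64.6 and 289) for the 976 silent protein-coding genes elsewhere. For expressed protein-coding genes the same distance was 25.4 kb in CR bins and 61.7 kb elsewhere, so gene density moved with this result and its part was not tested. Silent protein-coding CR genes were short, with a median length of 7.57 kb, against 29.03 kb for expressed ones.

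Their starts were poor in CG dinucleotides. In the 300 bases around the start, silent protein-coding CR genes had a median of 5 CG dinucleotides (quartiles 3 and 11), and expressed ones a median of 24 (15 and 33). Elsewhere the medians were 4 (1 and 9) for silent and 24 (14 and 32) for expressed protein-coding genes. The TATAAA motif, searched on both strands, was present in 12.8% of windows of silent protein-coding CR genes and in 6.34% of those of expressed ones. Elsewhere it was present in 22.8% and 6.71%, and over all genes of the 11 chromosomes in 17.01%. The CELA1 window printed above is of the CG-poor kind and carries the motif, whereas the ARID3C window holds neither feature.

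Of the silent protein-coding CR genes, 91 had neither spliced nor unspliced RNA in any cell. The genes named next were chosen after their values were seen, and they do not summarise the 91. AVP, the vasopressin gene, starts 38.7 kb from MRPS26, a mitochondrial ribosomal protein gene with 0 to 138 TPM and a median of 47.3. PAX4, a transcription factor of pancreatic islets, starts 24.5 kb from GCC1, at a median of 3.19 TPM. MYL7, an atrial myosin light chain gene, starts 16.97 kb from POLD2, at 27.8 to 225 TPM with a median of 123. APOA4, an apolipoprotein gene of the intestine, starts 35.3 kb from ZPR1, at 1.15 to 141 TPM with a median of 37.6. CXCR1, a chemokine receptor of neutrophils, starts 50.2 kb from ARPC2, an actin-nucleating subunit with 36.8 to 264 TPM and a median of 140. AQP5, the aquaporin of secretory glands, starts 71.3 kb from RACGAP1, a cytokinesis gene with a median of 67.7 TPM. Over the 91 genes the distance ran from 1.64 to 206 kb. By length, the longest genes silent in both kinds of RNA were the lncRNA gene TMEM26-AS1 (29318 bp), LRTM2 (16487 bp), a gene for a leucine-rich repeat membrane protein that overlaps CACNA2D4, and PRSS21 (9125 bp), a serine protease gene of the testis, beside the clone-named RP11-84C10.3 (11815 bp), RP11-216L13.16 (10287 bp) and RP11-47I22.1 (10100 bp).

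The domains with the highest summed RNA were not the longest ones. The 2040-kb domain chr12:55560001-57600000, which holds RPL41 and ATP5F1B, had a mean summed TPM of 16098 per cell, and the 1200-kb domain chr12:119880001-121080000, which holds RPLP0 and COX6A1, had one of 10301. The longest domain, on chromosome 9, had one of 3280.

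Domains without any expressed gene start were few and mostly short. They numbered 98 of 460, held 5.09% of the CR bins and had a median length of 80 kb, against 520 kb for the 362 domains with an expressed start. Of the 98, 31 had no gene start and 67 had only starts of genes that were not expressed. The longest without a gene start, chr5:123240001-123400000 (160 kb), covered part of CEP120, a centriole gene with 0 to 77.5 TPM and a median of 18.6 that crosses its edge. The next, chr3:56720001-56800000 (80 kb) and chr3:124960001-125040000 (80 kb), covered parts of ARHGEF3, with RNA in 10 cells, and of HEG1, with a median of 2.44 TPM. Only 5 domains overlapped no gene at all.

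The longest domains with gene starts but no expressed one held few genes. The domain chr12:77560001-78800000 spanned 1240 kb, had a GC content of 35.5% and held 9 gene starts, none of them protein-coding. Its summed TPM averaged 0.964 per cell. The gene NAV3, a neuron navigator gene of 888 kb, starts outside it and reaches in, with 0.810 to 195 TPM and a median of 30.6. The domain chr5:124480001-125240000, of 760 kb, held 10 gene starts, among them ZNF608, a zinc finger gene with RNA in 24 of 56 cells and up to 43.9 TPM. LINC02240, a lncRNA gene that starts in it, had unspliced RNA in all 56 cells at a median count of 3.46. The domain chr3:77920001-78600000, of 680 kb, held 6 gene starts with a mean summed TPM of 0.332 per cell, and its edge bin holds the end of ROBO1, an axon guidance receptor gene of 1171 kb with 1.26 to 330 TPM and a median of 69.5. All 3 domains were 2-copy in at least 96.4% of called cells at every bin, which the rule fixed. The absence of an expressed gene start holds for spliced RNA. By unspliced RNA, 2 genes that start in the 1240-kb domain and 3 in the 760-kb domain were above 0 in over 50% of cells, and 0 in the 680-kb domain. They were the clone-named RP11-171L9.1 (51 cells) and RP11-136F16.1 (40 cells) in the 1240-kb domain, and CTD-2308B18.3 (53 cells), LINC02240 and ZNF608 (31 cells) in the 760-kb domain.

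The few cells in which CR genes were still in the 1-copy state allowed their RNA to be read in both states. Of the 2658 expressed CR genes, 1116 were 1-copy in at least 1 cell, and 16 cells had at least 30 such genes. In each of these cells, the median over 1-copy genes of the difference in log10(TPM + 1) from the same gene's median in 2-copy cells was set beside that of the 2-copy genes of the cell. The 1-copy genes were lower in 10 of the 16 cells and higher in 6, and the differences ran from -0.151 in a cell with 35 such genes to 0.0690 in cell 38, with 52. In cell 51, with 188 such genes, the difference was -0.0535, and in cell 53, with 147, it was -0.0457. With 30 to 188 genes per cell these values describe single cells.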

How the data were processed

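Single HAP1 cells in mid-S phase were profiled for DNA copy number and total RNA. DNA reads were aligned with BWA 0.7.17-r1188 according to the submitters' processing notes. RNA reads were processed with the ramdaq pipeline, as the paper states. The authors binarized the DNA of each cell in 40-kb bins against G1 cells and deposited a copy-state score of 1 (2-copy), -1 (1-copy) or 0 (no call) on hg38. The authors deposited spliced RNA as TPM and unspliced RNA, under a TPM title, as fractional values that were read here as estimated counts. Whether reads were counted by strand was not stated for these tables, which leaves overlapping genes and near-identical copies uncertain.

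CR bins had state 1 in at least 95% of called cells, with at least 28 cells called. Adjacent CR bins were joined to domains, and a gene counted as inside when all bins it touches were CR bins. Genes were expressed when above 0 in over 50% of cells. RNA levels were compared per cell as median log10(value + 1). Gene classes came from GENCODE 44 and promoter sequences from RefSeq GRCh38.p14, which 2985 CR genes matched. The bins, gene lists and named-gene rules were chosen with earlier results of these data known. The named genes were, by rule, the CR genes with the highest spliced and unspliced medians, the longest expressed and silent ones, the genes of the longest domains and the leading members of each list; others are said to be chosen after their values were seen. No test was run, since the cells are not replicates of separate cultures. Alternatives varied the thresholds, the cells and the gene definition. Scripts were tested on simulated data and used Python 3.11.15, numpy 2.4.6, pandas 2.3.3, scipy 1.17.1 and matplotlib 3.10.9. The level of 1 marker gene is not reported here.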

Additional observations from a re-analysis of the deposited data

How the results depend on the processing

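Of 74 alternative values, 59 stayed within the range set for each result and 15 moved. The range was a factor of 1.5 for counts, and the SD over cells for differences and the share of RNA. Only the differences between CR and other genes could change direction, and 0 of them did. Counting only bins at 100% gave 3176 bins and 4089 genes, against 6839 and 8252. Gene starts per Mb of CR bins became 52.6 with any overlap and 13.5 for protein-coding genes only, against 31.5. The detected difference became 16.8 percentage points with any overlap, 15.8 with the deposited gene state and 14.3 for protein-coding genes, against 13.3. The share of summed TPM became 54.7% with any overlap and 53.6% with the gene state, against 49.7%. The unspliced difference became 0.141 for protein-coding genes, 0.0571 per kb of gene length and 0 without the filter on expressed genes, against 0.269, and the spliced difference became 0 without that filter, against 0.0963. Silent CR genes numbered 265 when only protein-coding genes were counted, against 2384. CR domains without an expressed gene numbered 50 with any overlap, against 98. A threshold of 90% gave 9602 bins in 496 domains. Leaving out cells 51 and 53, an alternative chosen after seeing the data, gave 7376 bins. No paired analysis was possible because no groups of samples were compared. A TPM of 0 is limited by the depth of a single cell.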

Other observations

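The same rule applied to chromosomes outside the 11 gave uneven shares of CR bins. It took 48.6% of the bins of chromosome 17, 41.7% of chromosome 22 and 31.4% of chromosome 19, all above the highest of the 11, chromosome 14 with 25.5%. It took 7.69% of chromosome 21, 8.95% of chromosome 8, 9.40% of chromosome 18 and 9.58% of chromosome 4, all below the lowest of the 11, chromosome 5 with 11.7%. Chromosomes 6 (16.1%) and 13 (14.5%) fell within the range of the 11. The RNA of these chromosomes was not analysed here.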
